A study of Nothobranchius furzeri with 8 samples.

Results

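Human genes named *VIM*, *SOX4*, *RRM1* and *CENPF* are known as markers of brain progenitors, newborn neurons and dividing cells. Whether the 4 killifish genes given these names mark the same cells was not tested. They were followed in whole brains of the turquoise killifish *Nothobranchius furzeri*. They are 4 of the 26739 rows of the expression tables, taken by their identifiers: Nfu_g_1_020179 (*VIM*), Nfu_g_1_001775 (*SOX4*), Nfu_g_1_005253 (*RRM1*) and Nfu_g_1_004256 (*CENPF*). All 4 were among the 19517 genes tested, those that had a count of 1 or more in each of the 8 brains. Since they were selected on the difference between wild and captive fish in these same libraries, their values are given as a description, with a fold change and its SE but without a test. Tests are given for the other genes of the same name and for the genes of the same processes.

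Vimentin is an intermediate filament protein, found in the brain in radial glia, the stem cells that line the ventricles, and outside the neural lineage in endothelial and connective tissue cells. *SOX4* encodes a transcription factor of the SoxC group that is known to act in newborn neurons together with *SOX11*. *RRM1* encodes the large subunit of ribonucleotide reductase, the enzyme that makes the deoxynucleotides (dNTPs) needed for DNA synthesis, and *CENPF* encodes a large protein that accumulates before mitosis and binds the kinetochore, the structure that holds chromosomes to the spindle. The fish brain keeps growing after hatching, and radial glia that divide and give rise to neurons are a known source of that growth.

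Wild fish came from population A41 (strain label MZM_A41) and captive fish from the laboratory strain MZM-0410. All 8 were males, 4 wild fish of 39 days post hatching (dph) and 4 captive fish of 35 dph by the sample labels, which list no transgene or drug. The question is how expression in the brain differs between life in a pond and life in an aquarium in young fish. Wild fish were dissected at the pond and their brains kept in RNAlater before freezing, whereas captive brains were frozen at once, and the ages of wild fish were estimated from pond flooding and otoliths. The study states that wild fish, unlike captive fish, had reached their final body size by 39 dph. Population, strain history, age, growth stage, diet and storage therefore changed together with condition, and their effects cannot be told apart. Fish carry the numbers 3, 5, 7 and 11 (wild) and the names MZM_0410_124 to MZM_0410_127 (captive), which name the fish and do not pair them.

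Total counts per library were 13923243 to 14541119 in wild and 11814586 to 14393377 in captive fish. Levels are given as counts scaled to the library size (CPM, with TMM factors), and levels of different genes are compared only per kb of transcript. A gene was called when its adjusted p from edgeR's quasi-likelihood test was under 0.05 over all genes tested. By this rule 41.6% of the genes tested were called, 19.8% as higher and 21.8% as lower in the wild. The 4 wild fish did not overlap the 4 captive fish in 39.8% of the genes tested, being above them in 19.2% and below them in 20.7%. Among the 7344 genes with a name, 65.9% were called, 32.5% as higher and 33.4% as lower in the wild. The groups did not overlap in 61.3% of these named genes, 30% with wild fish above and 31.3% with wild fish below. The shares called among named genes are given beside the gene lists below, but are not matched to them. Of these names, 2778 come only from a table that the study built in part on these libraries. The lists hold unlike shares of such names, such as 1 of 22 kinetochore and 10 of 24 radial glia genes. The part of these names in the shares called was not tested. The lists are also incomplete, with 21 genes tested for 52 symbols of DNA replication, 22 for 52 of the kinetochore and 2 for 21 of microglia. The RNA integrity numbers listed by the study were lower in every wild library than in any captive library, so that RNA integrity and condition cannot be told apart.

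The level of *VIM* was higher in every wild brain than in any captive brain. The wild fish 3, 5, 7 and 11 had 154.6, 105.6, 106.1 and 108.5 CPM, and the captive fish MZM_0410_124 to MZM_0410_127 had 70.5, 70.2, 54.8 and 75.5 CPM. Fish 3 stood above the other wild fish, which lay close together, and fish MZM_0410_126 was the lowest of the captive fish. The means were 118.7 ± 23.9 CPM in wild and 67.8 ± 8.95 CPM in the captive group (SD, n = 4 per group), a 1.75-fold higher level with a log2 fold change of 0.81 (SE 0.14). Without fish 3 the log2 fold change was 0.66. In whole tissue, more cells with vimentin and more *VIM* RNA per cell cannot be told apart.

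The spread of *VIM* within the groups came largely from single fish. The 681 to 2186 counts per library give a counting error of 2.42% of the mean in wild and 3.38% in captive fish, whereas the coefficient of variation was 20.2% and 13.2%. The median over genes of similar count was 6.51% in wild and 5.74% in captive fish. Without wild fish 3 the coefficient of variation of the wild fish was 1.42%, below the counting error, and without MZM_0410_126 that of the captive fish was 4.14%.

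**Figure D1:**
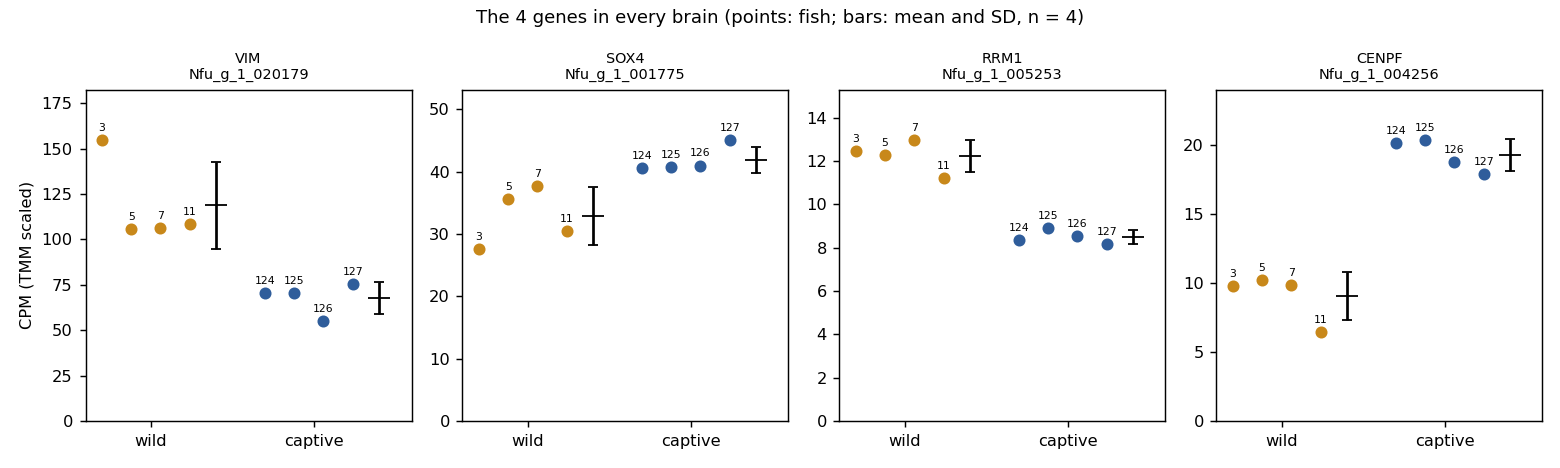
CPM of *VIM*, *SOX4*, *RRM1* and *CENPF* (y axes, on the TMM scale and starting at 0) in the 4 wild and 4 captive brains. Points are fish with their numbers, and bars are the mean and SD. The 4 genes were selected on the difference between the groups, with *VIM* and *RRM1* higher and *SOX4* and *CENPF* lower in wild fish. That the groups do not overlap for them follows from this selection, and it holds for 39.8% of all genes tested. Wild fish 3 (*VIM*, 154.6 CPM) and 11 (*CENPF*, 6.44 CPM) stand apart.

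Other intermediate filament genes did not share a direction. Of 8 tested genes of this class, 2 rose (25%), 1 fell (12.5%) and 5 were not called, beside 32.5% and 33.4% of all named genes. The median log2 fold change of the 8 genes was 0.01, against 0.04 for all genes tested. *NES*, which encodes nestin, the filament partner of vimentin in neural stem cells, had 11.5, 13.4, 15.5 and 12.8 CPM in the wild fish and 9.65, 6.87, 9.42 and 7.68 CPM in the captive fish. The groups did not overlap, and *NES* rose by 0.67 on the log2 scale (SE 0.14, adjusted p = 0.0048). *LMNB2*, a lamin of the nuclear envelope, rose from 58.8 ± 1.76 to 74.6 ± 3.23 CPM (adjusted p = 0.00066). *NEFM*, the medium neurofilament of axons, fell from 231.4 ± 96.3 to 104.5 ± 28.6 CPM (adjusted p = 0.0077).

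*GFAP*, the filament that defines radial glia and astrocytes, was not called. It had 711.6, 314.6, 1088 and 904.9 CPM in the wild fish and 641.9, 397.5, 366.3 and 522.8 CPM in the captive fish, so that the groups overlapped. Its log2 fold change was 0.65 (SE 0.32, adjusted p = 0.14). Wild fish 3, the highest for *VIM*, was only the third highest wild fish for *GFAP*. The number of falling filament genes was 2 without captive fish MZM_0410_127.

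Genes of radial glia and progenitors moved in both directions. Of 24 tested genes 7 rose, 8 fell and 9 were not called, with a median log2 fold change of -0.01, and 32.5% and 33.4% of all tested genes with a name were called higher and lower. *FABP7*, a fatty acid binding protein of radial glia (Nfu_g_1_015220), had 140.6, 137.7, 140.8 and 94.7 CPM in the wild fish and 57.5, 66.1, 69.4 and 48.0 CPM in the captive fish, a difference of 1.09 on the log2 scale (SE 0.15, adjusted p = 0.0003). *S100B*, a calcium binding protein of glia, rose from 2206 ± 404.8 to 3919 ± 580.9 CPM (adjusted p = 0.00098). Both the *FABP7* and the *S100B* values of wild fish lay above all those of captive fish, as did *VIM*. Wild fish lay above in 30% of all named genes, and *FABP7* and *S100B* were named for their small p.

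The Notch receptor *NOTCH3* (Nfu_g_1_007618), of a pathway that maintains progenitors, fell from 180.5 ± 10.7 to 126.7 ± 6.92 CPM (adjusted p = 0.00014). *MSI2*, an RNA binding protein of stem cells, fell from 101.4 ± 5.22 to 79.2 ± 1.73 CPM (adjusted p = 0.00049). Both *NOTCH3* (Nfu_g_1_007618) and *MSI2*, named for their small p as well, were lower in every wild brain than in any captive brain. Wild fish lay below in 31.3% of all named genes. The summed level of the 24 genes was 5807 to 7805 CPM in wild and 3947 to 5411 CPM in the captive group, a sum of which *S100B* is the largest part. Names of 10 of the 24 genes come only from a table that the study built in part on these libraries, so that the counts of this list are not independent of the comparison, and the same holds for 0 to 4 genes of each of the other 7 process lists.

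Vimentin is also made by cells of vessels and meninges. Of the 11 tested marker genes of endothelium, mural and meningeal cells 2 rose (18.2%) and 4 fell (36.4%), beside 32.5% and 33.4% of all named genes. The summed level of the 11 genes was 477.9 to 1532 CPM in wild and 644.4 to 1001 CPM in the captive group. The rising genes were *COL6A1*, a collagen of connective tissue, from 16.8 ± 1.83 to 34.4 ± 9.58 CPM (adjusted p = 0.0016), and *PECAM1* (Nfu_g_1_007108), an adhesion protein of endothelium, from 11.4 ± 2.42 to 18.4 ± 3.80 CPM (adjusted p = 0.013), whereas a second *PECAM1* gene (Nfu_g_1_019588, named after its values were seen) was not called (24.8 ± 2.97 in wild and 22.9 ± 2.55 CPM in captive brains, adjusted p = 0.42). The falling genes were 2 *NOTCH3* genes, the fibronectin gene *FN1*, from 104.4 ± 16.3 to 74.9 ± 5.46 CPM (adjusted p = 0.0054), and *FLT1*, a VEGF receptor of endothelium, from 31.0 ± 2.53 to 24.1 ± 1.49 CPM (adjusted p = 0.0064). *COL1A2* (Nfu_g_1_023149), the gene of the list with the most counts, had 277.6, 40.6, 49.0 and 660.7 CPM in the wild fish and 76.3 to 307.9 CPM in the captive fish. Fish 3 was the highest of the wild fish in 5 of the 11 genes, and in 23.5% of all genes tested. It was also the highest in 5 of 11 oligodendrocyte genes and in 8 of the 24 radial glia genes. In other lists it was the highest in 1 of 8 filament genes, 1 of 20 of newborn neurons and 1 of 29 of mature neurons. The number was 1 of 21 for DNA replication, 5 of 40 for mitosis, 3 of 22 for the kinetochore and 3 of 16 for dNTP supply. It was 2 of 7 for the SOX family, 1 of 2 for microglia and 2 of 6 for erythrocytes. The part of vessel, meningeal or other cells in the level of *VIM* was not tested.

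The level of *SOX4* was lower in every wild brain than in any captive brain, with the smallest fold difference of the 4 genes. The wild fish 3, 5, 7 and 11 had 27.6, 35.6, 37.8 and 30.4 CPM, and the captive fish MZM_0410_124 to MZM_0410_127 had 40.65, 40.77, 40.98 and 45.05 CPM. Captive fish were nearly equal apart from fish MZM_0410_127, whereas wild fish were spread, and the highest wild fish came within a few CPM of the lowest captive fish. The means were 32.9 ± 4.68 and 41.9 ± 2.13 CPM, a 1.28-fold lower level in wild fish with a log2 fold change of -0.35 (SE 0.10). The coefficient of variation was 14.2% in wild fish and 5.09% in captive fish, against medians of 8.30% and 7.43% over genes of similar count. The counting error is 4.60% of the mean in wild and 4.30% in captive fish, close to the observed captive spread. Without MZM_0410_127 the coefficient of variation of the captive fish was 0.41%, below the counting error. A difference between this fish and the other captive fish was thus not told apart from counting.

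A second *SOX4* gene (Nfu_g_1_012974, 1.116 kb against 1.23 kb) was lower in wild fish as well. It had 31.9, 38.3, 36.3 and 37.4 CPM in the wild fish and 40.0, 39.7, 48.4 and 47.0 CPM in the captive fish, with no overlap. The study's gene tables give this gene the fish symbol *SOX4A* and the other *SOX4B*, the pair that remained from the duplication of the genome in bony fish. The second gene fell by 0.28 on the log2 scale (SE 0.09, adjusted p = 0.03). This call was lost without wild fish 3 (adjusted p = 0.07), wild fish 7 (0.057), captive fish MZM_0410_126 (0.069) or captive fish MZM_0410_127 (0.067), and under upper quartile scaling (0.06) or thinning to equal depth (0.054).

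Both *SOX4* genes were about equally expressed. Per kb, Nfu_g_1_001775 gave 42.5 to 48.6% of their joint level in wild and 43.5 to 48.2% in captive fish, so that the shares of the groups overlapped. Wild fish 3 had the lowest level of both genes among the wild fish. Reads from stretches that 2 copies share may have been placed on either, which limits any comparison within such a pair.

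*SOX11*, the partner of *SOX4* in newborn neurons (chosen after its values were seen), was not called. It had 59.0, 66.5, 72.7 and 60.3 CPM in the wild fish and 65.1, 74.3, 60.3 and 65.6 CPM in the captive fish, a difference of -0.04 on the log2 scale (SE 0.09, adjusted p = 0.75). Its groups overlapped almost fully. Of the 7 tested genes of the SOX family other than Nfu_g_1_001775, 3 rose (42.9%) and only the second *SOX4* gene fell (14.3%). Of all named genes, 32.5% were called higher and 33.4% lower. *SOX17*, a factor of endoderm and endothelium, rose from 11.7 ± 1.87 to 20.5 ± 5.05 CPM (adjusted p = 0.0064), and *SOX5*, a SoxD factor of neurons and glia, from 71.6 ± 7.08 to 85.6 ± 3.86 CPM (adjusted p = 0.019). Without captive fish MZM_0410_124 only 1 gene of this family rose.

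Genes of newborn neurons were likewise divided. Of 20 tested genes 7 rose (35%), 4 fell (20%) and 9 were not called, beside 32.5% and 33.4% of all named genes. The median log2 fold change of the 20 genes was 0.03. *NEUROD1*, a factor that drives neuronal differentiation, rose from 455.3 ± 95.8 to 696.7 ± 35.4 CPM (adjusted p = 0.0032), and *MLLT11* from 99.1 ± 8.74 to 124.9 ± 7.84 CPM (adjusted p = 0.0051). *ELAVL4*, an RNA binding protein of neurons, fell from 87.2 ± 7.19 to 45.1 ± 1.68 CPM (adjusted p = 5e-06), and the adhesion gene *NCAM1* (Nfu_g_1_000645) from 281.0 ± 7.61 to 227.4 ± 13.7 CPM (adjusted p = 0.0019). *ELAVL3*, the gene of the list with the most counts, had 848.1 ± 29.7 and 881.2 ± 69.2 CPM (adjusted p = 0.5).

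Among markers of mature neurons more genes fell than rose. Of 29 tested genes 5 rose (17.2%) and 15 fell (51.7%), beside 32.5% and 33.4% of all named genes, and 11 of the 29 are named only through the table built in part on these libraries. Their summed level was 9589 to 10420 CPM in wild and 11430 to 12220 CPM in the captive group. *SYN1*, a protein of synaptic vesicles, fell from 172.4 ± 8.01 to 43.3 ± 7.16 CPM (adjusted p = 8.6e-07). The neuronal markers were therefore well expressed in all 8 brains, as the tissue label requires. Of 11 oligodendrocyte genes 2 rose (18.2%) and 4 fell (36.4%), with a sum of 4915 to 7671 CPM in wild against 7423 to 11460 CPM in captive brains. Of 6 erythrocyte genes 1 rose (16.7%) and 5 fell (83.3%), with a sum of 111.9 to 143.2 against 184.9 to 239.6 CPM. Only 3 erythrocyte genes fell without wild fish 7 or captive fish MZM_0410_125. Both tested microglia genes, *ITGB2* and *CD74*, rose, but only 1 of them when fish 3, 5, MZM_0410_124, MZM_0410_126 or MZM_0410_127 was left out. The part of cell composition in the level of *SOX4* or the other 3 genes was not tested.

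**Figure D2:**
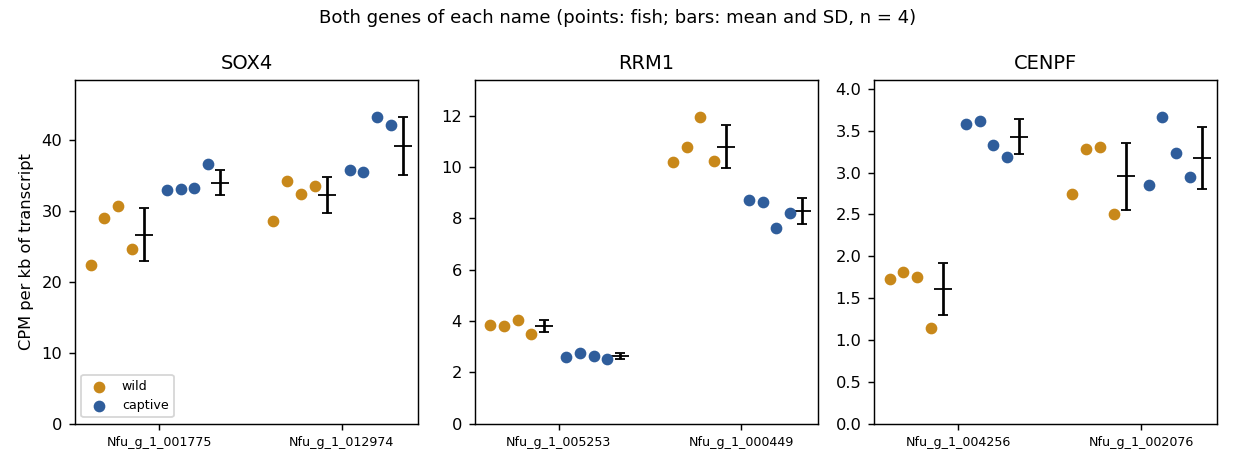
CPM per kb of transcript (y axes, starting at 0) of both genes named *SOX4*, *RRM1* and *CENPF* in each fish. Points are fish, and bars are the mean and SD of 4 fish. Both *SOX4* genes are lower and both *RRM1* genes higher in wild fish, whereas only Nfu_g_1_004256 of the *CENPF* rows separates the groups, with 1.61 against 3.43 CPM per kb.

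The level of *RRM1* was higher in every wild brain than in any captive brain, and fish of a group were very similar. The wild fish 3, 5, 7 and 11 had 12.5, 12.3, 13.0 and 11.2 CPM, and the captive fish MZM_0410_124 to MZM_0410_127 had 8.35, 8.93, 8.54 and 8.17 CPM. No fish stood apart from its group. The means were 12.2 ± 0.73 and 8.50 ± 0.33 CPM, a 1.44-fold higher level in wild fish with a log2 fold change of 0.53 (SE 0.10). With 97 to 189 counts per library, the counting error alone is 7.54% in wild and 9.57% in captive fish, and the observed coefficients of variation of 6.01% and 3.82% lay below it. Differences between fish of a group were thus not detectable at this depth.

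The second *RRM1* gene (Nfu_g_1_000449, 3.247 kb against 3.223 kb) rose as well. It had 33.2, 35.0, 38.9 and 33.2 CPM in the wild fish and 28.3, 28.1, 24.8 and 26.6 CPM in the captive fish, with no overlap, and rose by 0.38 on the log2 scale (SE 0.08, adjusted p = 0.0036). This gene carried most of the *RRM1* signal. Per kb, Nfu_g_1_005253 gave 25.2 to 27.4% of the joint level in wild fish and 23.0 to 25.8% in captive fish, ranges that overlapped.

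The small subunits of ribonucleotide reductase had higher mean levels per kb than the large subunit, though *RRM2B* overlapped it in wild fish. Both *RRM1* genes together gave 14.6 ± 1.00 CPM per kb in wild and 10.9 ± 0.53 CPM per kb in captive fish. *RRM2*, the small subunit made in S phase (chosen after its values were seen), gave 32.1 ± 4.75 and 27.1 ± 1.04 CPM per kb, and its difference was not called (log2 fold change 0.24, SE 0.10, adjusted p = 0.08). *RRM2B*, the small subunit of resting cells (chosen in the same way), gave 17.6 ± 1.79 and 14.1 ± 0.52 CPM per kb and rose by 0.32 on the log2 scale (SE 0.08, adjusted p = 0.0086). Among the tested reductase genes, the second *RRM1* gene and *RRM2B* were thus the ones called.

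Of 16 tested genes of dNTP supply 8 rose, 1 fell and 7 were not called, and the median of their log2 fold changes was 0.30. The rising share of 50% stands beside 32.5% of named genes called higher, and the falling share of 6.25% beside 33.4% called lower. *NME2*, a kinase that makes nucleoside triphosphates, rose from 480.8 ± 30.2 to 670.9 ± 19.7 CPM (adjusted p = 0.0001), and *CTPS1*, which makes CTP, from 39.6 ± 1.02 to 50.3 ± 3.24 CPM (adjusted p = 0.0018). *CAD*, the enzyme of the first steps of pyrimidine synthesis, fell from 34.5 ± 3.41 to 25.7 ± 4.00 CPM (adjusted p = 0.015). The number of rising genes was 4 without wild fish 7, 5 without captive fish MZM_0410_127, and 4 once the dependence on length was taken out.

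Genes of DNA replication, which uses the dNTPs, rose in wild fish or were not called. Of 21 tested genes 10 rose (47.6%) and none fell (0%) by edgeR's quasi-likelihood test. The number that fell was also 0 at an unadjusted p under 0.05 and 0 by DESeq2. Among all named genes 32.5% were called higher and 33.4% lower, and among all genes tested 19.8% and 21.8%. For the 21 genes, the median of the log2 fold changes was 0.36. *ORC4*, a subunit of the origin recognition complex, rose from 8.53 ± 0.58 to 13.1 ± 0.87 CPM (adjusted p = 0.0012), and *RFC5*, of the clamp loader, from 9.80 ± 1.02 to 14.0 ± 0.26 CPM (adjusted p = 0.003). *LIG1*, the DNA ligase of replication and the gene of the list with the most counts, rose from 30.0 ± 1.24 to 35.8 ± 1.67 CPM (adjusted p = 0.01). The number of rising genes was 6 without wild fish 7, 6 without captive fish MZM_0410_127, and 5 once the dependence on length was taken out.

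The level of *CENPF* was lower in every wild brain than in any captive brain, with the largest fold difference of the 4 genes. The captive fish MZM_0410_124 to MZM_0410_127 had 20.2, 20.4, 18.8 and 18.0 CPM, and the wild fish 3, 5 and 7 had 9.76, 10.2 and 9.89 CPM. Fish 11, at 6.44 CPM, was the only wild fish apart from these. The means were 9.07 ± 1.76 CPM in wild and 19.3 ± 1.16 CPM in the captive group, a 2.13-fold lower level in wild fish. The counts were 93 to 267 per library, for which the counting error is 8.76% in wild and 6.35% in captive fish, against observed coefficients of variation of 19.4% and 5.99%. Without fish 11 the log2 fold change was -0.96 and the coefficient of variation of the wild fish 2.30%.

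A second row named *CENPF* (Nfu_g_1_002076, 9.61 kb against 5.631 kb) did not separate the groups. It had 26.4, 31.5, 31.8 and 24.0 CPM in the wild fish and 27.4, 35.3, 31.1 and 28.4 CPM in the captive fish. Its log2 fold change was -0.10 (SE 0.11, adjusted p = 0.5), and 0.16 (adjusted p = 0.32) once the dependence on length was taken out. Fish 11 was the lowest wild fish for both rows.

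The balance of both *CENPF* rows did not overlap between the groups. Per kb, Nfu_g_1_004256 gave 31.4 to 38.7% of the joint level in wild and 49.7 to 55.7% in captive fish, whereas the shares of the *SOX4* and *RRM1* genes overlapped between groups. Nfu_g_1_004256 was selected on its difference between the groups, and the second row was not called. The shift of the share restates that difference and is no separate result. In the study's gene tables the second row carries the fish symbol *CENPF*, and Nfu_g_1_004256 carries a clone-based symbol with *CENPF* as its human name. RefSeq's gene table of the assembly NfurGRZ-RIMD1, another build than that of the counts, lists *cenpf* as 1 gene. Whether both rows are separate genes or parts of a single gene was not tested.

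The tested kinetochore genes rose or were not called. Of 22 tested genes of the kinetochore and the spindle checkpoint 6 rose and none fell by edgeR's quasi-likelihood test (0 at an unadjusted p under 0.05 and 0 by DESeq2), and the median of their log2 fold changes was 0.24. The rising share of 27.3% stands beside 32.5% of named genes and 19.8% of all genes tested called higher. The falling share of 0% stands beside 33.4% of named genes and 21.8% of all genes tested called lower. *NDEL1*, a dynein regulator and a paralog of *NDE1*, rose from 34.7 ± 1.51 to 43.1 ± 1.58 CPM (adjusted p = 0.0026). *MIS12*, a subunit of the kinetochore, rose from 10.3 ± 1.65 to 16.5 ± 3.32 CPM (adjusted p = 0.0088), with overlap between the groups. The gene of the list with the most counts, *PAFAH1B1*, another dynein regulator, had 376.1 ± 20.1 and 343.2 ± 9.68 CPM (adjusted p = 0.072).

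*CENPE*, a kinesin of the kinetochore, and *NDE1* (both chosen after their values were seen) had negative fold changes but were not called. *CENPE* had 18.4 ± 5.04 CPM in wild and 21.0 ± 1.23 CPM in the captive group (adjusted p = 0.38), and *NDE1* had 2.35 ± 0.30 and 2.71 ± 0.70 CPM (adjusted p = 0.48). The wild and captive fish overlapped for both genes. The number of rising kinetochore genes was 3 without captive fish MZM_0410_126 or MZM_0410_127, and 10 under upper quartile scaling.

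Of 40 tested genes of mitosis and the cell cycle 12 rose, 2 fell and 26 were not called, and the median of their log2 fold changes was 0.21. The rising share of 30% stands beside 32.5% of named genes and 19.8% of all genes tested called higher. The falling share of 5% stands beside 33.4% of named genes and 21.8% of all genes tested called lower. *MKI67*, the common marker of cycling cells (chosen after its values were seen), had 32.6, 33.2, 38.1 and 30.6 CPM in the wild fish and 31.3, 38.2, 35.9 and 31.4 CPM in the captive fish. The groups overlapped almost fully, with a difference of -0.02 on the log2 scale (SE 0.09, adjusted p = 0.85). *CCNE1*, the cyclin of entry into S phase, rose from 13.7 ± 1.09 to 18.9 ± 1.84 CPM (adjusted p = 0.0055). *CKAP5*, a microtubule polymerase that neurons also use, and *CIT*, a kinase of cytokinesis, were the falling genes of the list. They fell by 0.49 (SE 0.05, adjusted p = 4.3e-05) and by 0.30 (SE 0.08, adjusted p = 0.011) on the log2 scale. Without captive fish MZM_0410_127 the number of rising genes was 7.

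**Figure D3:**
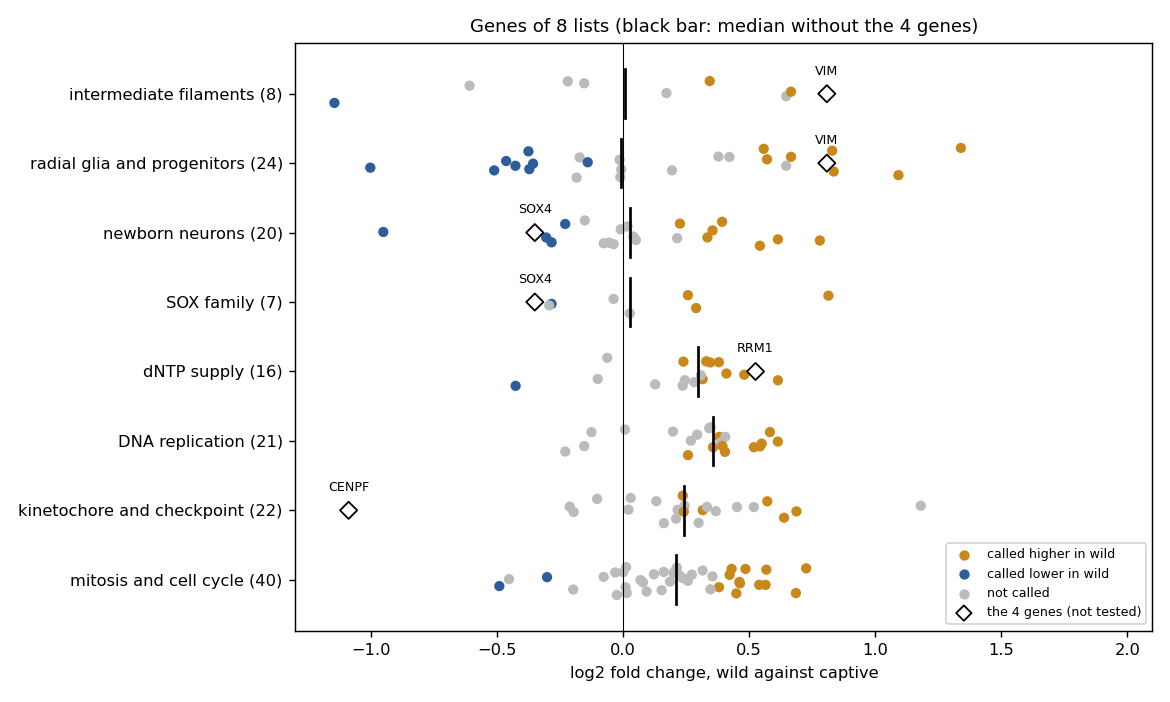
Log2 fold change of wild against captive fish (x axis) for the genes of 8 lists, with the number of tested genes in parentheses. Points are genes, coloured by their call, black bars are medians, and open diamonds are *VIM*, *SOX4*, *RRM1* and *CENPF*, which are not tested and not part of the medians. *RRM1* lies on the side of most genes of dNTP supply. *CENPF*, selected like the others on its difference in these libraries, lies at -1.09. The 22 tested kinetochore genes, among them the second *CENPF* row, lie above it, and none was called lower.

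Within a fish, the order of the 4 levels differed between the groups. The 4 genes were selected on their difference between the groups, some higher and some lower in wild fish. Ratios between them restate those differences and are no separate result. Per kb, *VIM* gave 57.9 ± 11.7 and *SOX4* gave 26.7 ± 3.80 CPM per kb in wild fish, and *VIM* was 1.69 to 3.36 times as high as *SOX4* in the 4 wild fish. In captive fish *VIM* gave 33.0 ± 4.37 and *SOX4* gave 34.0 ± 1.73 CPM per kb, levels that did not differ beyond their spread, with ratios of 0.80 to 1.04. *VIM* stood at the 93rd percentile of all genes tested by its level per kb in wild fish and at the 88th in captive fish.

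The lower pair changed places. *RRM1* gave 3.80 ± 0.23 and *CENPF* gave 1.61 ± 0.31 CPM per kb in wild fish, and 2.64 ± 0.10 and 3.43 ± 0.21 CPM per kb in captive fish. The ratio of *CENPF* to *RRM1* was 0.33 to 0.47 in the wild fish and 1.26 to 1.38 in the captive fish. A ratio within a library does not depend on the scaling between libraries. Its shift between the groups follows from the differences on which both genes were selected.

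Among wild fish, those that were high or low for a gene were not the same for all 4. Fish 3 had the highest *VIM* and the lowest *SOX4*, fish 7 the highest *SOX4* and *RRM1*, and fish 11 the lowest *RRM1* and *CENPF*. Among captive fish, MZM_0410_127 was at an end of the range for all 4, with the highest *VIM* and *SOX4* and the lowest *RRM1* and *CENPF*. For *RRM1*, differences between fish of a group were not detectable at this depth. Fish 11 was the lowest wild fish in 26.4% of all genes tested. The number was 12 of the 21 replication genes, 20 of the 40 mitosis genes and 9 of the 22 kinetochore genes. It was 14 of the 24 radial glia genes and 8 of the 11 oligodendrocyte genes. In other lists it was 4 of 16 genes of dNTP supply, 8 of 29 of mature neurons, 2 of 11 of vessels and meninges and 1 of 6 of erythrocytes. It was 4 of 8 filament genes, 8 of 20 genes of newborn neurons, 2 of 7 of the SOX family and 2 of 2 of microglia. Fish 11 was the highest wild fish in 14 of the 29 mature neuron genes and in 28% of all genes tested. The part of any of these genes in its low *CENPF* was not tested.

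Transcript length went with the fold change over all genes. In the longest quintile of the genes tested, from 5.264 kb, 10% were called higher and 38.4% lower in wild fish, and the median log2 fold change there was -0.15. The medians of the other quintiles were 0.06 to 0.12. *CENPF* (5.631 kb) lies at the lower bound of that quintile, and the trend at its length was -0.04, against its log2 fold change of -1.09. The trend was 0.10 at the length of *VIM* and of *RRM1* and 0.05 at that of *SOX4*. With the trend removed, the log2 fold changes were 0.71 for *VIM*, -0.40 for *SOX4*, 0.43 for *RRM1* and -1.05 for *CENPF*.

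**Figure D4:**
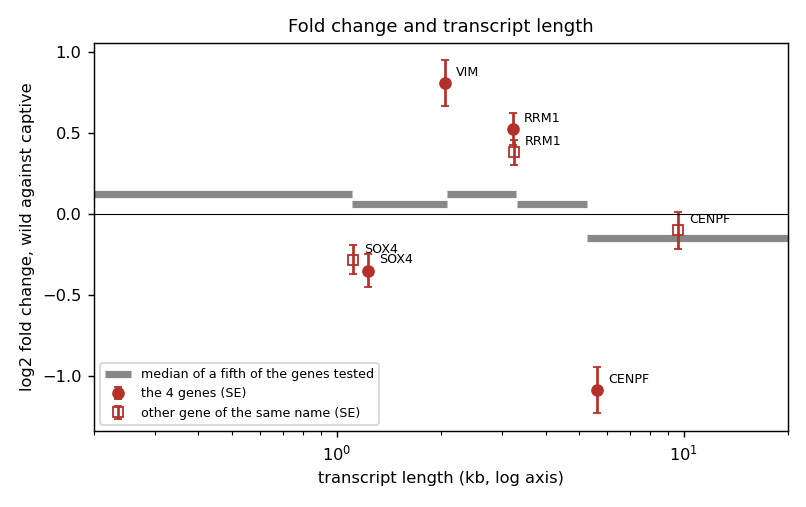
Log2 fold change of wild against captive fish (y axis) against transcript length in kb (x axis, log scale). Grey bars are medians of the length quintiles of all genes tested, filled points are the 4 genes, open squares are the other genes of the same name, and bars are SE. The median is below 0 only in the longest quintile, and *CENPF* lies at -1.09, against the median of -0.15 of the genes in its length class.

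The genes most like each of the 4 were found among 6538 named genes whose mean count was 100 or more, by the root mean square difference of log2 CPM over the 8 fish after each gene was centred on its own mean. For *VIM* these were *CSTA* (difference 0.14), *DENND2A* (0.14) and *ABHD10* (0.15), against a median of 0.47 over all candidates. For *SOX4* they were *KPNA6* (0.06), *NHLRC3* (0.07) and *LRFN1* (0.07), and for *RRM1* they were *TRPT1* (0.04), *ZDHHC16* (0.04) and *EIF3J* (0.04). None of these is a gene of the lists above.

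For *CENPF* the nearest genes were *PLCL2* (0.12), *PHF21B* (0.15) and *KCNC2* (0.16), the last a potassium channel of neurons. The second *CENPF* row was at rank 2403 with a difference of 0.52, whereas the second *SOX4* gene was at rank 208 (0.13) and the second *RRM1* gene at rank 269 (0.10). This likeness over 8 libraries takes in the difference between the groups, which the nearest genes of each of the 4 share with it. The RPM and RPKM values deposited by the authors give the same order of groups, with log2 ratios of the group means of 0.84 for *VIM*, -0.32 for *SOX4*, 0.56 for *RRM1* and -1.06 for *CENPF*.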

How the data were processed

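The 8 directional poly(A) libraries of whole brain were processed by the authors: bcl2fastq 2.20.0.422 wrote the reads, TopHat2 2.1.0 placed them on a hard-masked genome, and featureCounts 1.6.5 assigned them to genes with reversed strand. The authors deposited whole read counts, RPM (counts scaled to the library total) and RPKM (RPM per kb of transcript) for the same genes. Counts were the basis of every test, RPM and RPKM gave transcript lengths, and no table pooled fish.

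Genes with at least 1 count in all 8 libraries were scaled by TMM and tested in edgeR 4.0.16 (quasi-likelihood F-test, R 4.3.3), with condition as the only term and Benjamini-Hochberg adjustment over all 19517 genes tested. The common biological coefficient of variation was 0.16. Replicate libraries differed by a chi-square per gene of 7.77 to 17.1, so none was a copy of another. The pipeline was tested on simulated data. Fish are separate animals, and counting errors cover counting only.

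The 4 genes, the 13 gene lists and the tests were chosen with earlier results of these data known. Lists were written from general knowledge, and symbols come from the human names in the study's gene tables, which name 7344 of the genes tested, 2778 of them only through a table built in part on these libraries. Named from each list are the gene with the highest mean count and, for each direction, the 2 called genes of smallest p, and others are marked as chosen after their values were seen. The alternatives were RLE and upper quartile scaling, DESeq2 1.42.0, no filter or filterByExpr, a lowess offset (span 0.3) that takes out the dependence on transcript length, thinning to the smallest library, and leaving out each library. Sequences and coordinates are not given here.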

Additional observations from a re-analysis of the deposited data

Results flagged for a closer look

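For 3 of the 4 genes a single fish lay far from the other 3 of its group, by a gap that took up most of the range of the group. *VIM* was 154.6 CPM in wild fish 3, with the other wild fish at 105.6 to 108.5 CPM. *SOX4* (Nfu_g_1_001775) was 45.05 CPM in captive fish MZM_0410_127, with the other captive fish at 40.65 to 40.98 CPM. The counting error of *SOX4* in captive fish is 4.30%, so that this gap was not told apart from counting. *CENPF* (Nfu_g_1_004256) was 6.442 CPM in wild fish 11, with the other wild fish at 9.758 to 10.2 CPM. Chance gives such a gap in about 1 of 20 groups, and over the 12992 genes whose mean count was 100 or more it was found in 5.78% (wild) and 5.09% (captive).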

How the results depend on the processing

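No paired analysis was possible because wild and captive fish share no replicate numbers. Under the 15 alternatives the log2 fold change was 0.66 to 0.87 for *VIM*, -0.42 to -0.27 for *SOX4*, 0.43 to 0.58 for *RRM1* and -1.15 to -0.96 for *CENPF*, with no change of sign. Removal of the trend on transcript length gave the *RRM1* value of 0.43, turned the second *CENPF* row to 0.16, which stayed uncalled, and changed the rising genes of dNTP supply from 8 to 4 and of DNA replication from 10 to 5, and the falling genes of dNTP supply from 1 to 0 and of mitosis from 2 to 1. The second *SOX4* gene had -0.23 under upper quartile scaling and -0.26 after thinning and was not called, which left 0 falling SOX genes in both settings. Upper quartile scaling called 10 rising kinetochore genes in place of 6. Leaving out each library in turn gave -0.34 to -0.23 for the second *SOX4* gene, 1 to 2 falling filament genes, 1 to 3 rising and 0 to 1 falling SOX genes, and rising genes of 4 to 7 for dNTP supply, 6 to 13 for DNA replication, 3 to 6 for the kinetochore and 7 to 12 for mitosis. Where no value shows it, the cause was not tested. The number of genes called was 8115, with 7027 to 8834 over the alternatives that keep all libraries. With 93 to 267 counts for *CENPF* and 97 to 189 for *RRM1*, depth limits what can be said of single fish.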
